A study of Mus musculus with 2 samples.

Results

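The miRNA genes of the vessel wall examined here are Mir126a and Mir126b, the endothelial pair, and Mir143, Mir145a and Mir145b, the mural set, where mural cells are vascular smooth muscle cells and pericytes. They were chosen by gene symbol in the GENCODE M21 annotation and make up 5 of the 2202 miRNA genes counted. Adrenal glands came from adult female 5xFAD/CAST mice, 8 to 10 months old, obtained from The Jackson Laboratory. Here 5xFAD names a transgenic Alzheimer's disease model and CAST the strain in the cross. Whether a given animal carried the transgene is not stated in the labels. There was 1 group of 2 small RNA libraries, replicate 2 and replicate 1, with different biosamples but an identical donor identifier. It is therefore not known whether they are separate animals, and their spread may be technical. No condition was contrasted. Sense-strand reads on miRNA genes numbered 6924829 in replicate 2 and 3635851 in replicate 1, and levels are given as CPM, reads per 1000000 of these.

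The miRNA miR-126 is made from an intron of Egfl7, a gene for a protein secreted by endothelium, and is a classical marker of endothelial cells. It is known to favour signalling by vascular endothelial growth factor through its targets Spred1 and Pik3r2, and it holds down the adhesion molecule Vcam1. miR-143 and miR-145 are transcribed together in smooth muscle under serum response factor and myocardin, and they favour the contractile state, miR-145 in part through the transcription factors Klf4 and Klf5. The adrenal cortex is drained through a dense bed of fenestrated capillaries around cords of steroid-producing cells. Each gene gives a hairpin precursor, from which a short mature strand is cut. Bases 2 to 8 of that strand, the seed, pair with the target.

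The Mir126 locus carries a hairpin on each strand, and its sequences are shown because the overlap decides which reads the deposited tables assign to it. Mir126a lies on the plus strand at chr2:26591357-26591429 (mm10) and Mir126b on the minus strand at chr2:26591363-26591420. The sequences are those of RefSeq (GRCm38.p6), written 5′ to 3′, and were used for 2 of the 5 genes. In the Mir126a hairpin the capitals mark the stretch that Mir126b covers. In the Mir126b hairpin all 58 bases are capitals, since all 58 equal the reverse complement of that stretch. In the mature strands the capitals mark the seed.
Mir126a hairpin: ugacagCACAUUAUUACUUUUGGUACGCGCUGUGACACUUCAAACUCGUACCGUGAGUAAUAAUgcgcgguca
mmu-miR-126a-3p: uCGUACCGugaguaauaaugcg
Mir126b hairpin: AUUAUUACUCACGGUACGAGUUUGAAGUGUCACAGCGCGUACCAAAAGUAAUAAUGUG
mmu-miR-126b-3p: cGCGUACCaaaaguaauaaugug
mmu-miR-126b-5p: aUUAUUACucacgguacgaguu

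The 3 mature strands have different seeds, although those of miR-126a-3p and miR-126b-3p share a run of 6 bases that is offset by a base. The mature strands miR-126a-3p and miR-126b-3p share a run of 10 bases, while miR-126a-3p and miR-126b-5p share no run longer than 4. The strand miR-126a-5p is not among those compared here. None of the 3 seeds is the seed of another mature strand in the RefSeq table, which is not complete. Of the 22 bases of miR-126a-3p, 19 lie over the Mir126b hairpin. The predicted minimum free energy of folding was -31.2 kcal per mol for the 73-base Mir126a hairpin and -19.3 kcal per mol for the 58-base Mir126b hairpin (RNAfold).

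Mir126a (ENSMUSG00000065540.1) was among the most abundant miRNA genes of the gland. It had 287602 sense reads in replicate 2 and 206095 in replicate 1, which gave 41532 CPM in replicate 2 (95% Clopper-Pearson interval, exact, 41384 to 41681) and 56684 CPM in replicate 1 (56447 to 56922). The intervals do not overlap, and like all intervals here they cover counting error only, since reads amplified by PCR and not tagged by molecule are not independent. Its mean was 49108 ± 10714 CPM (SD, n = 2), with rank 9 in replicate 2 and rank 4 in replicate 1. In the annotation 9 transcripts of Egfl7 span Mir126a on the same strand, with the hairpin in an intron of 8 and in an exon of 1, and Gm20532 spans it with an intron of 1 transcript.

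Mir126b (ENSMUSG00000105799.1), antisense to these host transcripts, was near the lower end of detection. It had 22 sense reads in replicate 2 and 26 in replicate 1. Its level was 3.18 CPM (1.99 to 4.81) in replicate 2 and 7.15 CPM (4.67 to 10.5) in replicate 1, and these intervals overlap slightly. Mir126a thus had 13073 sense reads for each sense read of Mir126b in replicate 2 and 7927 in replicate 1. The reads are counted per gene, so the 3p and 5p strands of a hairpin cannot be told apart.

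The tables hold 3 unnamed count columns, taken from their values to be reads counted without regard to strand, reads in the gene's own direction (sense) and reads in the opposite direction. Counting without regard to strand removed nearly all of Mir126a, which had 10 reads in that column in replicate 2 and 2 in replicate 1. In the opposite column Mir126a held 22 reads in replicate 2 and 26 in replicate 1, the same numbers as the sense reads of Mir126b. Mir126b held 287592 opposite reads in replicate 2 and 206093 in replicate 1, short of the Mir126a sense reads by exactly the 10 and the 2 reads that the unstranded column kept. The reads that the unstranded column left out at this locus numbered 287614 in replicate 2 and 206119 in replicate 1, or 35.7% of the ambiguous reads of replicate 2 and 43.3% of those of replicate 1. Sense reads are therefore used throughout.

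**Figure D1:**
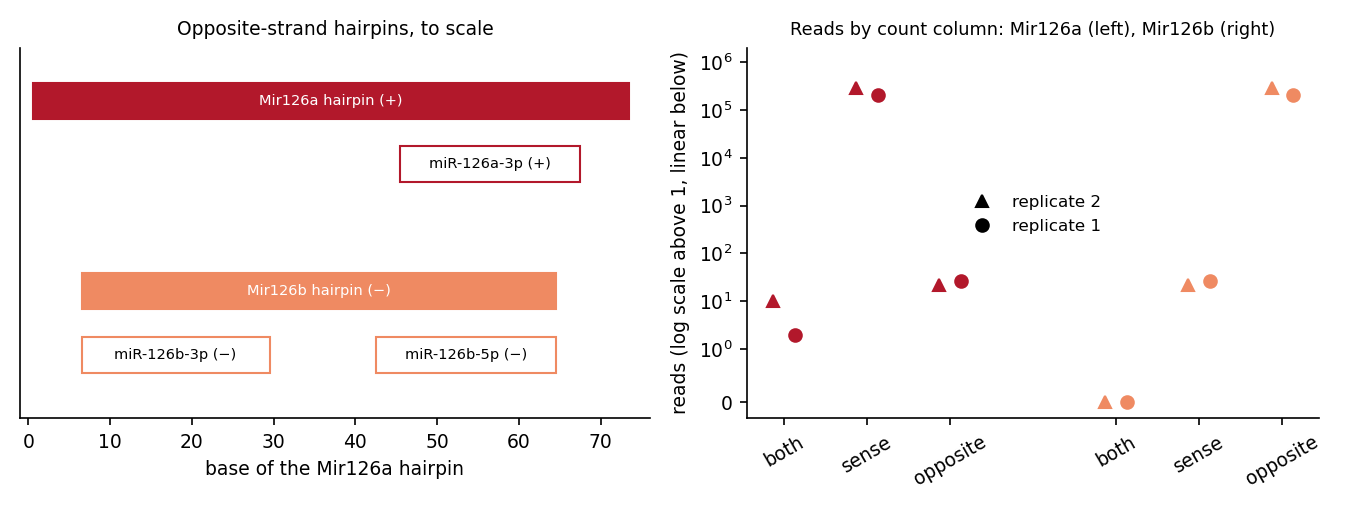
The Mir126 locus and its reads by count column. Left, the hairpins and the mature strands miR-126a-3p, miR-126b-3p and miR-126b-5p to scale, in bases of the Mir126a hairpin; right, reads on an axis that is logarithmic above 1 and linear below, for Mir126a (red) and Mir126b (orange) in replicate 2 (triangles) and replicate 1 (circles). The sense points of Mir126a, at 287602 and 206095 reads, reappear as the opposite points of Mir126b, and Mir126b has 0 unstranded reads in both libraries.

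Reads against the direction of Mir126a were rare but above the level of other abundant genes. They numbered 7.65 per 100000 reads of both directions together (4.79 to 11.6) in replicate 2 and 12.6 (8.24 to 18.5) in replicate 1. The 38 genes with at least 10000 sense reads in each library and no miRNA gene opposite to them served as background. Together they had 21 opposite reads on 5490121 sense reads in replicate 2 and 11 on 2827755 in replicate 1, or 0.383 per 100000 in replicate 2 and 0.389 in replicate 1. Mir126a stood 20.0-fold above this level in replicate 2 and 32.4-fold in replicate 1. A single background gene was higher in each library, Mir328 with 34.2 per 100000 on 5 reads in replicate 2 and Mir130a with 14.7 on 2 reads in replicate 1; both were chosen after their values were seen. Mir378a, Mirlet7e, Mir191 and Mir30e, the other genes with at least 10000 sense reads in each library that lie opposite to an annotated miRNA gene, had 0 opposite reads in both libraries and were likewise picked after the fact. Whether the antisense reads come from Mir126b or from other RNA of that strand was not tested.

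Mir143 and Mir145a lie 1301 bases apart on the minus strand of chromosome 18, and the noncoding gene Carmn spans both in RefSeq but neither in GENCODE M21. Mir143 (ENSMUSG00000065445.3, 61649196 to 61649258 in mm10) had 142866 sense reads in replicate 2 and 82618 in replicate 1. This gave 20631 CPM (20525 to 20737) in replicate 2 and 22723 CPM (22570 to 22877) in replicate 1. The mean was 21677 ± 1479 CPM (SD, n = 2), and the gene had rank 15 in each library. Its coefficient of variation between the libraries was 6.82%, against 21.8% for Mir126a.

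Mir145a (ENSMUSG00000065592.2, 61647825 to 61647894) was far lower than its neighbour. It had 5942 sense reads in replicate 2 and 4371 in replicate 1, or 858 CPM (836 to 880) in replicate 2 and 1202 CPM (1167 to 1238) in replicate 1. The mean was 1030 ± 243 CPM (SD, n = 2), with rank 81 in replicate 2 and rank 68 in replicate 1. Mir143 had 24.0 reads for each read of Mir145a in replicate 2 and 18.9 in replicate 1. The ratio of the neighbours was higher in replicate 2 by 0.35 on the log2 scale (95% interval 0.29 to 0.40; Fisher's exact test, two-sided, log10 of p = -31.0). Both the interval and the test cover counting error only.

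Among 94 same-strand pairs of detected miRNA genes no more than 10 kb apart, the median gap in mean level was 2.68 on the log2 scale, and the gap of Mir143 over Mir145a was 4.40, with 23 pairs showing a larger gap. Reads with several genomic matches are counted on no gene, which can widen gaps that involve miRNAs with copies. In the 58 pairs in which neither gene shares a stretch of 20 bases with a miRNA gene at another locus, a selection added after the values were seen, the median gap was 2.48 and 10 pairs showed a larger gap than Mir143 over Mir145a, neither of which shares such a stretch. Between the libraries the log2 ratios of Mir143 and Mir145a differed by 0.35, against a median of 0.49 over the 94 pairs. The miRNAs of a shared transcript also differ in processing, in stability and in how well each ligates to the adapter, and the share of each in this gap was not tested.

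Mir145b (ENSMUSG00000098366.1, chromosome 18, 69022199 to 69022273) lies 7374.3 kb from Mir145a. It had 5 sense reads in replicate 2 and 1 in replicate 1, which is 0.722 CPM (0.234 to 1.69) in replicate 2 and 0.275 CPM (0.00696 to 1.53) in replicate 1. A floor of 3 reads in a library equals 0.433 CPM in replicate 2 and 0.825 CPM in replicate 1, so the level of this gene is close to what these depths can resolve. Its predicted folding energy was -25.1 kcal per mol, against -30.3 kcal per mol for Mir145a and -36.9 kcal per mol for Mir143. Its hairpin shares a run of 17 bases with that of Mir145a, the longest that any of the 5 genes shares with another miRNA gene. Whether reads with several genomic matches were lost from either gene was not tested.

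**Figure D2:**
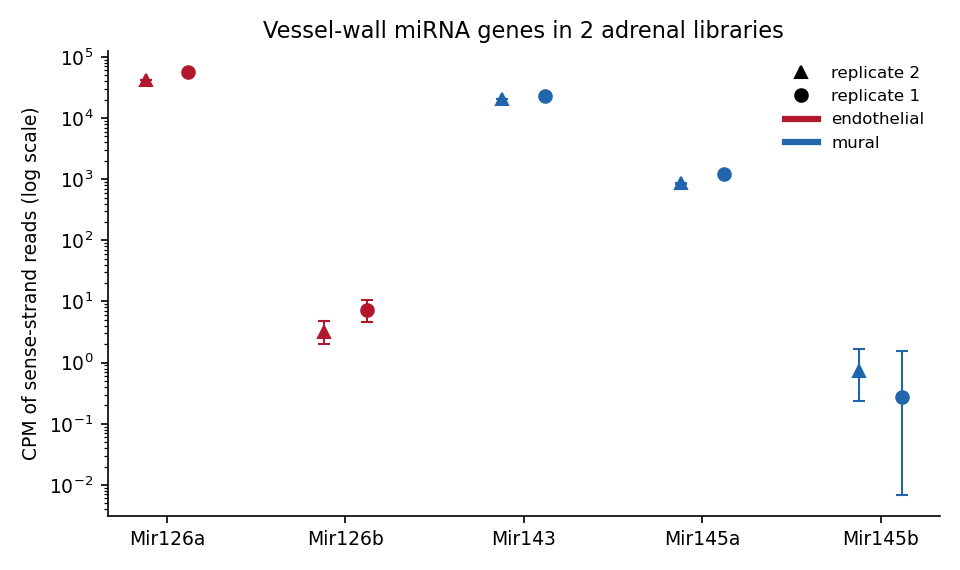
Sense-strand level of each vessel-wall miRNA gene in CPM (log axis), for replicate 2 (triangles) and replicate 1 (circles), with exact 95% intervals of counting error. The levels span from below 1 CPM for Mir145b to 41532 and 56684 CPM for Mir126a, and the replicate symbols of each gene lie close together on this scale.

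In order of mean level the genes were Mir126a, Mir143, Mir145a, Mir126b and Mir145b, and the ranges of neighbours in this order over the libraries did not overlap. Set per 100 bases of hairpin, the mean levels of the leading genes were 67271 CPM for Mir126a, 34408 CPM for Mir143 and 1472 CPM for Mir145a, which keeps the order. Small RNA reads are not sampled along the hairpin, so length matters little to these counts, while ligation bias affects every comparison between genes.

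Among all miRNA genes, the nearest to Mir126a in mean level were Mirlet7b, Mirlet7g and Mir10a above it and Mir375, Mirlet7i and Mirlet7d below it. Mir10a, at 54843 ± 5191 CPM (SD, n = 2), and Mir375, an endocrine cell miRNA at 45225 ± 1738 CPM, overlapped the range of Mir126a over the libraries, as did Mirlet7i and Mirlet7d. Mirlet7b, at 107083 ± 838 CPM, and Mirlet7g, at 98551 ± 18128 CPM, did not. Nearest to Mir143 stood Mir22, Mir23b and Mir23a above it, none of which overlapped its range, and Mir26b, Mir21a and Mir127 below it, all of which did. Mir21a, widely induced in injury and growth, averaged 20539 ± 10653 CPM.

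**Figure D3:**
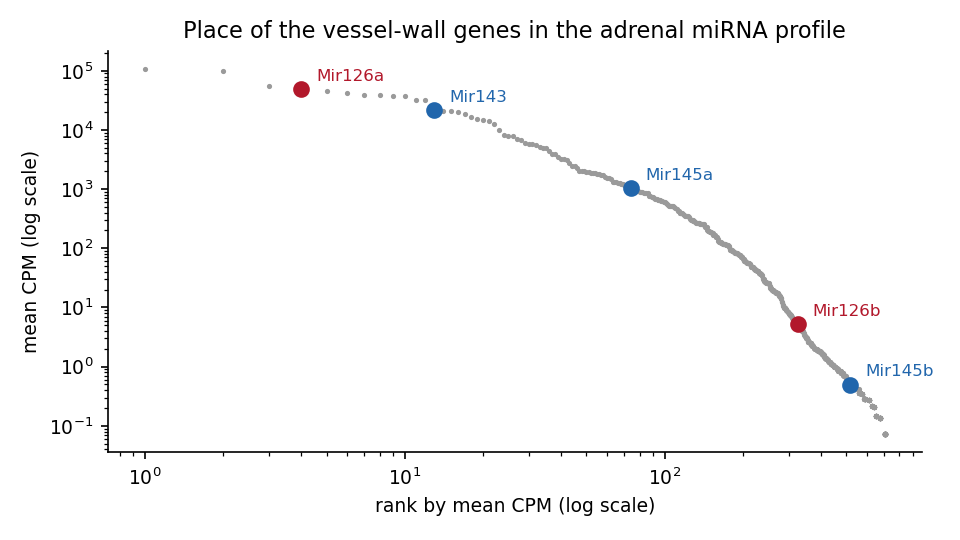
Mean sense-strand CPM of miRNA genes by rank, both axes logarithmic, with the vessel-wall genes marked in red (endothelial) and blue (mural). By mean level Mir126a takes rank 4, Mir143 rank 13 and Mir145a rank 74, while Mir126b and Mir145b lie far down the curve.

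The endothelial pair took 4.15% of the miRNA-gene reads in replicate 2 (4.14 to 4.17) and 5.67% in replicate 1 (5.65 to 5.69). The mural set took 2.15% in replicate 2 (2.14 to 2.16) and 2.39% in replicate 1 (2.38 to 2.41). Together the 5 genes held 7.18% ± 1.24 of the reads (SD, n = 2). In RNA from whole glands, fewer cells of a type and less of its RNA per cell cannot be told apart, so these shares are not shares of cells.

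The endothelial to mural ratio, with the reads of each side summed, was 1.93 in replicate 2 (1.92 to 1.94) and 2.37 in replicate 1 (2.35 to 2.39), with a mean of 2.15 ± 0.309 (SD, n = 2). Reads of the endothelial pair exceeded those of the mural set in both libraries, and whether other cells contributed to either was not tested. The ratio does not depend on the library total, and it was lower in replicate 2 by a log2 difference of -0.29 (-0.31 to -0.28; Fisher's exact test, two-sided, log10 of p = -343). This test compares these libraries and covers counting error only. With Mir126a set over Mir143 alone the ratio was 2.01 in replicate 2 and 2.49 in replicate 1. With Mir126a set over Mir145a alone it was 48.4 in replicate 2 and 47.2 in replicate 1, a log2 difference of 0.04 (-0.02 to 0.09; Fisher's exact test, two-sided, p = 0.193). The lower ratio in replicate 2 thus holds against Mir143, which had most of the mural reads, and was not seen against Mir145a.

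**Figure D4:**
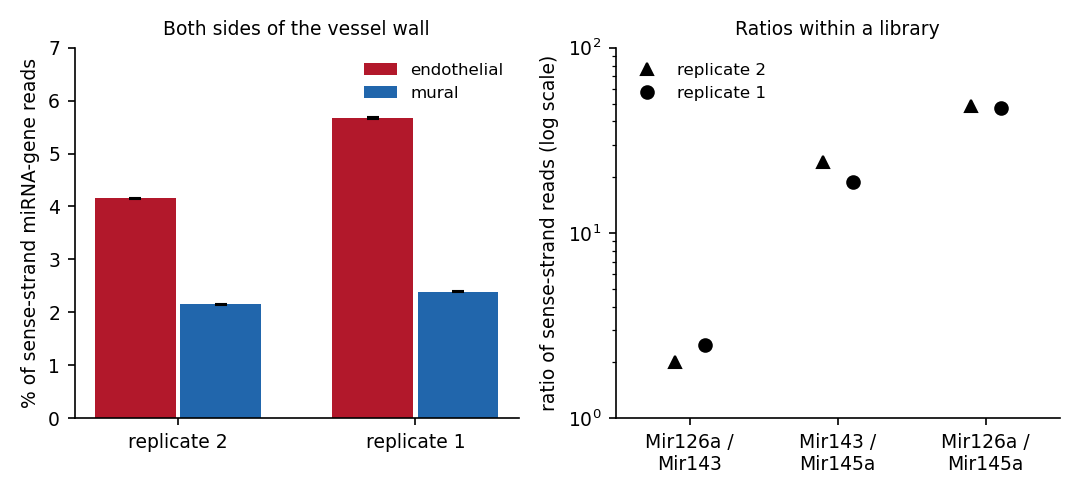
Left, endothelial (red) and mural (blue) shares of sense-strand miRNA-gene reads in percent, with exact 95% intervals of counting error, in replicate 2 and replicate 1; right, ratios of reads between single genes on a log axis. Endothelial shares of 4.15% and 5.67% stand above mural shares of 2.15% and 2.39%, and the points of Mir126a over Mir145a, at 48.4 and 47.2, lie closest together.

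Differences between the libraries were common among miRNA genes of all kinds. By Fisher's exact test with Benjamini-Hochberg adjustment over the 455 genes with at least 10 reads, 52.5% of genes were called, 35.6% as lower and 16.9% as higher in replicate 2. All 4 vessel-wall genes that could be tested were called lower, and Mir145b had too few reads for the test. The log2 ratio of replicate 2 over replicate 1 was -0.45 for Mir126a (adjusted p too small for the software to represent), -1.17 for Mir126b (adjusted p = 0.0121), -0.14 for Mir143 (adjusted p = 1.45e-108) and -0.49 for Mir145a (adjusted p = 5.39e-62), all from Fisher's exact test. For Mir143 the log2 ratio became 0.0035 with TMM, which was not called (exact binomial test, adjusted p = 0.697). With DESeq2 size factors it became 0.048 and was called higher (exact binomial test, adjusted p = 5.54e-14). The other 3 genes stayed lower with either scaling.

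TMM moves every log2 ratio up by 0.14 and DESeq2 size factors by 0.19, and the split of 77 genes higher and 162 lower becomes 111 and 125 with TMM and 121 and 117 with DESeq2. The median log2 ratio of the 356 detected genes, those with at least 10 reads in each library, was -0.19 on plain totals. Of the other 355 detected genes, 46.5% had a larger absolute log2 ratio than Mir126a, 82.0% a larger one than Mir143 and 43.7% a larger one than Mir145a. Among abundant genes, the other 75 with a mean of at least 1000 CPM, these shares were 30.7% for Mir126a, 69.3% for Mir143 and 28% for Mir145a. The median log2 ratio of all 76 such genes was -0.037 on plain totals. edgeR's exact test, given a common dispersion that corresponds to a spread of 31.4%, called 5 genes (1.1%; 26 at an unadjusted p under 0.05), and its adjusted p was 1 for each of the 4 vessel-wall genes. That dispersion was estimated from the same 2 libraries, so the test can call only genes that differ more than is typical of them, and its p of 1 does not show that these genes did not differ.

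**Figure D5:**
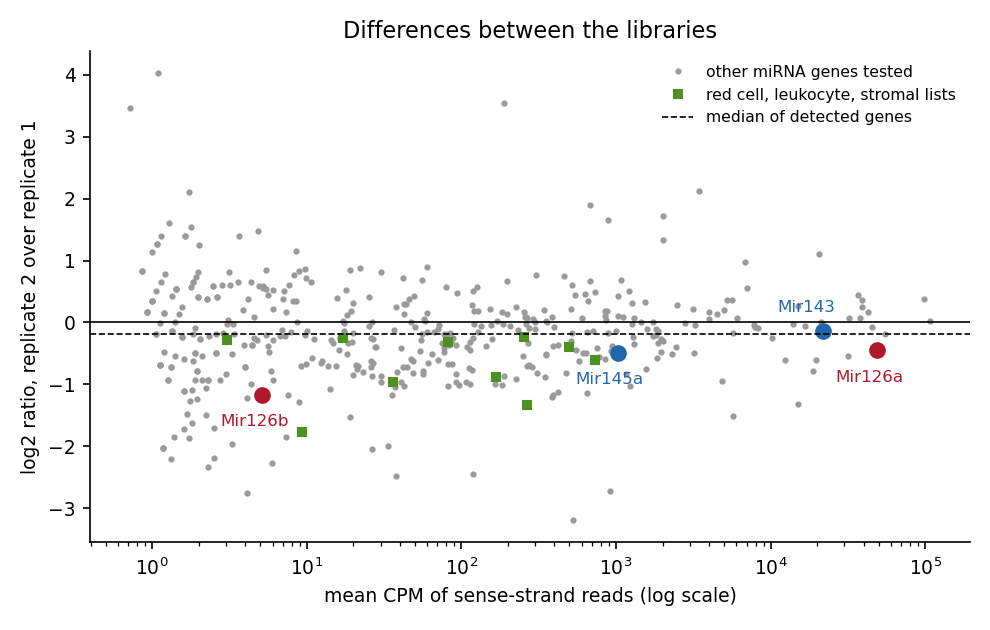
Log2 ratio of replicate 2 over replicate 1 against mean CPM (log axis) for the tested miRNA genes on plain library totals, with Mir126a and Mir126b in red, Mir143 and Mir145a in blue and the genes of the red cell, leukocyte and stromal lists as green squares. The 4 vessel-wall points lie below 0 and within the cloud of other genes, and that of Mir143, at -0.14, moves above 0 with TMM or DESeq2 scaling.

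Over genes with at least 1000 CPM, those whose log2 ratio came closest to Mir126a, at -0.45, were Mir351, at -0.47, and Mir145a, at -0.49. Closest to Mir145a were Mir130a, at -0.49, and Mir351. Mir361 and Mir409 came closest to Mir143, each at -0.14, and like Mir143 they turn with DESeq2 size factors. This likeness rests on 2 libraries, so it is a single difference per gene.

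Marker miRNAs of other cells in the gland also differed between the libraries, and their part in the ratio was not tested. Their counts stand beside 35.6% of all tested genes called lower and 16.9% called higher. The 4 red cell genes summed to 191 CPM in replicate 2 and 447 CPM in replicate 1, with 2 lower and 2 not called, and Mir451a, the main red cell miRNA, had 150 CPM in replicate 2 and 380 CPM in replicate 1. All 4 leukocyte genes were lower in replicate 2, with sums of 854 CPM in replicate 2 and 1147 CPM in replicate 1. They include Mir150 of lymphocytes, at 430 CPM in replicate 2 and 567 CPM in replicate 1, Mir155, at 233 CPM in replicate 2 and 273 CPM in replicate 1, and Mir142, a pan-leukocyte miRNA, at 117 CPM in replicate 2 and 216 CPM in replicate 1. Of the 4 stromal fibroblast genes 2 were lower, 1 was not called and Mir199a-1 was at 0, and the sum was 588 CPM in replicate 2 and 898 CPM in replicate 1, nearly all of it Mir214. Mir199a-1, Mir199a-2 and Mir199b share a stretch of at least 20 bases, so reads on it are counted on no gene and neither the 0 nor the share of Mir214 shows that miR-199 was low. These are calls of Fisher's exact test on plain totals, and edgeR's exact test called none of these genes.

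Of the 9 striated muscle genes 5, the copies of Mir1a and Mir133a and Mir133b, were at 0 in both libraries, but each shares at least 20 bases with another miRNA gene, so these values do not show absence. The other 4, Mir206, Mir208a, Mir208b and Mir499, share no such stretch, and with them the list summed to 6.07 CPM in replicate 2 and 7.70 CPM in replicate 1. Mir122 of liver had 108 CPM in replicate 2 and 78.1 CPM in replicate 1, and the 4 kidney genes summed to 79.9 CPM in replicate 2 and 130 CPM in replicate 1. Among the kidney genes Mir194-1 had only 2 reads in replicate 2 and 1 in replicate 1. Whether reads with several genomic matches were lost from the kidney or red cell genes was not tested, so their sums may be too low. The 4 neuroendocrine genes, led by Mir375, summed to 48363 CPM in replicate 2 and 50709 CPM in replicate 1, and Mir7b, at 3967 ± 107 CPM (SD, n = 2), and Mir7-1, at 262 ± 11.5 CPM, followed. The adrenal label was not checked beyond these lists.

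Other miRNAs studied in endothelium and angiogenesis spread in both directions. Of 24 genes listed 23 were counted and tested. By Fisher's exact test on plain totals 6 were higher, 12 lower and 5 not called in replicate 2. Of all 455 tested genes 16.9% were called higher and 35.6% lower. The median log2 ratio was -0.22 over the 22 detected genes of the list, close to the -0.19 of all detected genes. Mir10a, Mir23b, Mir23a, Mir10b and Mir322 were the most abundant, the last at 10163 ± 1259 CPM (SD, n = 2). Mir130a had 2661 CPM in replicate 2 and 3746 CPM in replicate 1. The clustered Mir221 and Mir222, which restrain endothelial growth in human cells, parted: Mir221 had 1745 CPM in replicate 2 and 1740 CPM in replicate 1 and was not called, and Mir222 had 235 CPM in replicate 2 and 540 CPM in replicate 1.

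The 3 members of the Mir23b cluster were higher in replicate 2, at 32736 CPM in replicate 2 and 31167 CPM in replicate 1 for Mir23b, 5356 CPM in replicate 2 and 4676 CPM in replicate 1 for Mir27b, and 94.4 CPM in replicate 2 and 63.5 CPM in replicate 1 for Mir24-1. In the sister cluster Mir23a was lower, at 25755 CPM in replicate 2 and 37608 CPM in replicate 1, as was Mir24-2, at 203 CPM in replicate 2 and 332 CPM in replicate 1, while Mir27a was higher, at 1140 CPM in replicate 2 and 1068 CPM in replicate 1. Counts of Mir23a and Mir23b, Mir27a and Mir27b, Mir24-1 and Mir24-2, and also of Mir7-1 and Mir7-2, are uncertain, since the genes of each pair share at least 20 bases. Mir10b, called lower at 16438 CPM in replicate 2 and 17046 CPM in replicate 1, turns to higher with TMM and with DESeq2 scaling. Of the Mir17 cluster, growth-promoting miRNAs, Mir17, at 1189 CPM in replicate 2 and 1402 CPM in replicate 1, Mir20a, at 510 CPM in replicate 2 and 719 CPM in replicate 1, and Mir92-1, at 679 CPM in replicate 2 and 1022 CPM in replicate 1, were lower. Mir132, induced by angiogenic growth factors in human endothelium, was higher, at 1436 CPM in replicate 2 and 1005 CPM in replicate 1, and so was Mir503, at 140 CPM in replicate 2 and 98.5 CPM in replicate 1. Mir296 was lower, at 125 CPM in replicate 2 and 162 CPM in replicate 1, and Mir210, the hypoxia miRNA, was not called, at 137 CPM in replicate 2 and 121 CPM in replicate 1.

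Of 12 genes studied in the smooth muscle phenotype, 8 could be tested, of which 3 were higher, 2 lower and 3 not called. These calls too stand beside 16.9% of all tested genes called higher and 35.6% called lower. The copies of Mir1a and Mir133a were at 0, which the counting of shared reads on no gene can produce. Mir21a had 28072 CPM in replicate 2 and 13006 CPM in replicate 1, Mir146 had 1405 CPM in replicate 2 and 1133.7 CPM in replicate 1, and Mir26a-2 had 349 CPM in replicate 2 and 29.7 CPM in replicate 1. Mir26a-2 shares at least 20 bases with Mir26a-1, and Mir146 with Mir146b, so their values are uncertain, as is that of Mir92-1, which shares such a stretch with Mir92-2. Of the named genes on these lists, Mir26a-2 was the one that edgeR's exact test called.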

How the data were processed

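Small RNA from 2 libraries of 1 group was analysed from raw counts that the authors deposited per miRNA gene, in 3 unnamed columns. Per the accompanying deposited notes, mm10 and GENCODE M21 were used. Aligner and counter: not given in the sources used here. Entries naming no gene, which held unmapped (16.5% of reads in replicate 2, 16.1% in replicate 1), multimapping (33.6% and 31.6%), featureless (4.99% and 5.55%) and ambiguous reads (5.24% and 6.12%), were left out of the totals. In each library the sense and opposite columns sum to the unstranded column plus 2 counts per ambiguous read. A floor is 3 counts.

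Members and lists were chosen with earlier results of these data known. All 2202 identifiers matched the annotation; listed symbols were matched through RefSeq synonyms (Mir92a-1, Mir18a, Mir486a and Mir486b as Mir92-1, Mir18, Mir486 and Mir3107), and Mir424 was not matched. Intervals are exact Clopper-Pearson at 95%. Differences between the libraries were tested with Fisher's exact test wherever a gene had 10 or more reads over the libraries. The test was two-sided, p was adjusted after Benjamini-Hochberg at 0.05, and log2 ratios had an offset of 0.5. The alternatives were the other columns, all reads as denominator, TMM, DESeq2 size factors, no filter, edgeR's exact test and each library left out. With TMM and with DESeq2 size factors an exact binomial test on the scaled totals replaced Fisher's exact test. A quasi-likelihood test between single libraries has no residual freedom. Besides the members, the named genes were those nearest in level (3 above, 3 below) or in log2 ratio, and list genes averaging 100 CPM or more. Fisher's exact test was checked on simulated counts that held counting error only, where it recovered 199 of 200 planted changes. These were 2-fold changes in genes with at least 100 reads over the libraries, so smaller differences and lower counts were not checked. That check gives no rate of false calls for libraries that differ by more than counting error, as these do. Python 3.11.15, scipy 1.17.1, pandas 2.3.3, numpy 2.4.6, matplotlib 3.10.9, RNAfold 2.7.2, R 4.3.3, edgeR 4.0.16 and DESeq2 1.42.0 were used.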

Additional observations from a re-analysis of the deposited data

How the results depend on the processing

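The choice of count column moved the endothelial values most. In the unstranded column the mean level was 1.13 CPM for Mir126a and 24746 CPM for Mir143, the endothelial share 0.000113%, the mural share 2.59% and the ratio 4.51e-05. In the opposite column Mir126a had 40.9 CPM, Mir143 and Mir145a 0, the endothelial share was 39.5% through Mir126b and the mural share 0, so no ratio could be given. Over all reads of a library the levels were 22597 CPM for Mir126a, 9954 CPM for Mir143 and 474 CPM for Mir145a, and the shares 2.26% endothelial and 1.04% mural. Leaving out either library only returns the values of the other, so it adds no check beyond the values per library. These were 41532 to 56684 CPM for Mir126a, 20631 to 22723 CPM for Mir143 and 858 to 1202 CPM for Mir145a. The shares were 4.15 to 5.67% endothelial and 2.15 to 2.39% mural, with an endothelial to mural ratio of 1.93 to 2.37. The ratio was 2.25 with Mir126a over Mir143, 1.87 per base of precursor and 47.8 with Mir126a over Mir145a. Its log2 difference between the libraries, -0.29, reversed to 1.55 in the unstranded column (Fisher's exact test, p = 0.231), on 10 and 2 reads of Mir126a, and to 0.038 with Mir126a over Mir145a. The log2 ratio of Mir126a reversed to 1.12 in the unstranded column. That of Mir143 changed sign, to 0.0035 with TMM, where it was not called, and to 0.048 with DESeq2. The 239 genes called between the libraries became 22 in the opposite column, where 36 were tested, and 5 by edgeR's exact test; the unstranded column, TMM, DESeq2 and no filter gave 217, 236, 238 and 231. Of neighbouring pairs, 23 of 94 had a larger gap than Mir143 and Mir145a, and 10 of 58 without shared stretches. A difference between libraries cannot be refitted without either of them. No paired analysis was possible because there is a single group. With 2 libraries that may share an animal, the spread cannot be assigned to animals or to library preparation.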
